A study of Mus musculus with 16 samples.

Results

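The genes described here make DNA in S phase or switch on that phase: the sliding clamp and its partners, nucleotide supply, primase and polymerases, clamp loader, single-strand binding protein, origin licensing, fork protection, chromatin copying, and the E2F factors with cyclin E. They were taken as a fixed list of 44 genes. Of these, 43 were measured, among 17097 genes on the arrays; Chaf1a was not analysed here. Where a gene had several probe sets, the one with the highest mean over all arrays stood for it.

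The study compared female mice lacking the RNA-binding protein CPEB2 (Cpeb2 -/-) with wild-type mice (Cpeb2 +/+) in 4 epithelial populations sorted from the mammary gland. Both genotypes carried Sox2-Cre, written +/+ in the labels, on a mixed C57BL/6J 129 background, and were 10 weeks old; Sox2-Cre is a transgene active in the early embryo, and no group without it was analysed here. Luminal cells were gated as Epcam high and CD49f low, then split into non-clonogenic luminal cells (NCL, Sca1+ CD49b-), ductal progenitors (DP, Sca1+ CD49b+) and alveolar progenitors (AP, Sca1- CD49b+). Myoepithelial cells (Myo) were Epcam low and CD49f high. Each genotype had 2 mice and each mouse gave 4 arrays, 1 per population, so the 16 arrays form 8 groups of 2. Mouse 1 of both genotypes came from 1 pair of parents, and mouse 2 of both from another. The mice are the replicates, and their number limits the precision of every value below.

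A cell copies its genome once per cycle. Origins are licensed in G1 by loading the MCM helicase with Cdt1, fired by kinases in S phase, and kept from a repeat by geminin. At each fork, primase and polymerase alpha start new strands, the RFC complex loads the PCNA clamp, polymerases delta and epsilon extend, RPA covers single strands and DNA ligase 1 joins lagging-strand pieces. E2F factors, held back by RB proteins until cyclin kinases release them, switch on most of these genes, and their RNA is known to be highest in cells in or near S phase.

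Values are log2 intensities, and a difference of 1 is a 2-fold change. Differences are given as knockout minus wild type with the standard error (SE) of the fit over all 16 arrays. A gene was called where limma's p-value, adjusted by the Benjamini-Hochberg method over all 17097 genes, was below 0.05. In such sorted bulk samples, fewer cells in S phase and less RNA per cell cannot be told apart.

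The array medians lay between 6.35 and 6.4, and the 2 arrays of a group correlated at 0.975 to 0.991 across probe sets. Cpeb2 itself was lower in the knockout (mean difference over the 4 populations -0.92 ± 0.21, adjusted p = 0.0201); it read 8.33 and 8.66 in wild-type NCL arrays against 6.42 and 7.67 in knockout ones, and in AP and Myo it lay between 4.71 and 6.03 in both genotypes. Whether its probe set lies in the deleted stretch is not stated in the labels, so this reading is only a limited check of genotype. Sorting markers followed the labels: the myoepithelial keratin Krt14 read 12.50 to 12.68 in Myo arrays and 6.29 to 7.42 elsewhere, and the alveolar factor Elf5 was highest in AP. The leukocyte antigen Ptprc read 3.81 to 3.98 in all arrays, and the mean level of 14 leukocyte markers stayed between 5.30 and 5.56. Fibroblast markers stood apart in 1 array, DP of wild-type mouse 1, where the mean of 8 markers was 8.38 against 6.38 to 6.84 in the other DP arrays.

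DNA synthesis genes were lower in knockout than in wild-type epithelium, and the difference ran through every part of the replication machinery. In the mean over the 4 populations, 37 of 43 members were called lower and none higher, where 7.04% of all genes were called lower. The median member difference was -1.22, against 0.02 for all genes. The PCNA-binding protein gene Pclaf showed the largest fall (-3.26 ± 0.34, 9.57-fold, adjusted p = 0.000404), followed by Rrm2 (-2.63 ± 0.29, 6.2-fold) and Prim1 (-2.61 ± 0.24, 6.11-fold). The smallest adjusted p belonged to Atad5 (5.37e-05). The 6 members not called were Dnmt1 (-0.43 ± 0.13, adjusted p = 0.0567), Ccne1 (-0.52 ± 0.16, 0.0600), Fen1 (-0.46 ± 0.16, 0.0959), Cdc7 (-0.33 ± 0.12, 0.0976), Ccne2 (-0.34 ± 0.14, 0.142) and Orc1 (0.05 ± 0.07, 0.631). The number called was 20 when knockout mouse 2 was left out and 30 to 42 when any other mouse was.

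**Figure D1:**
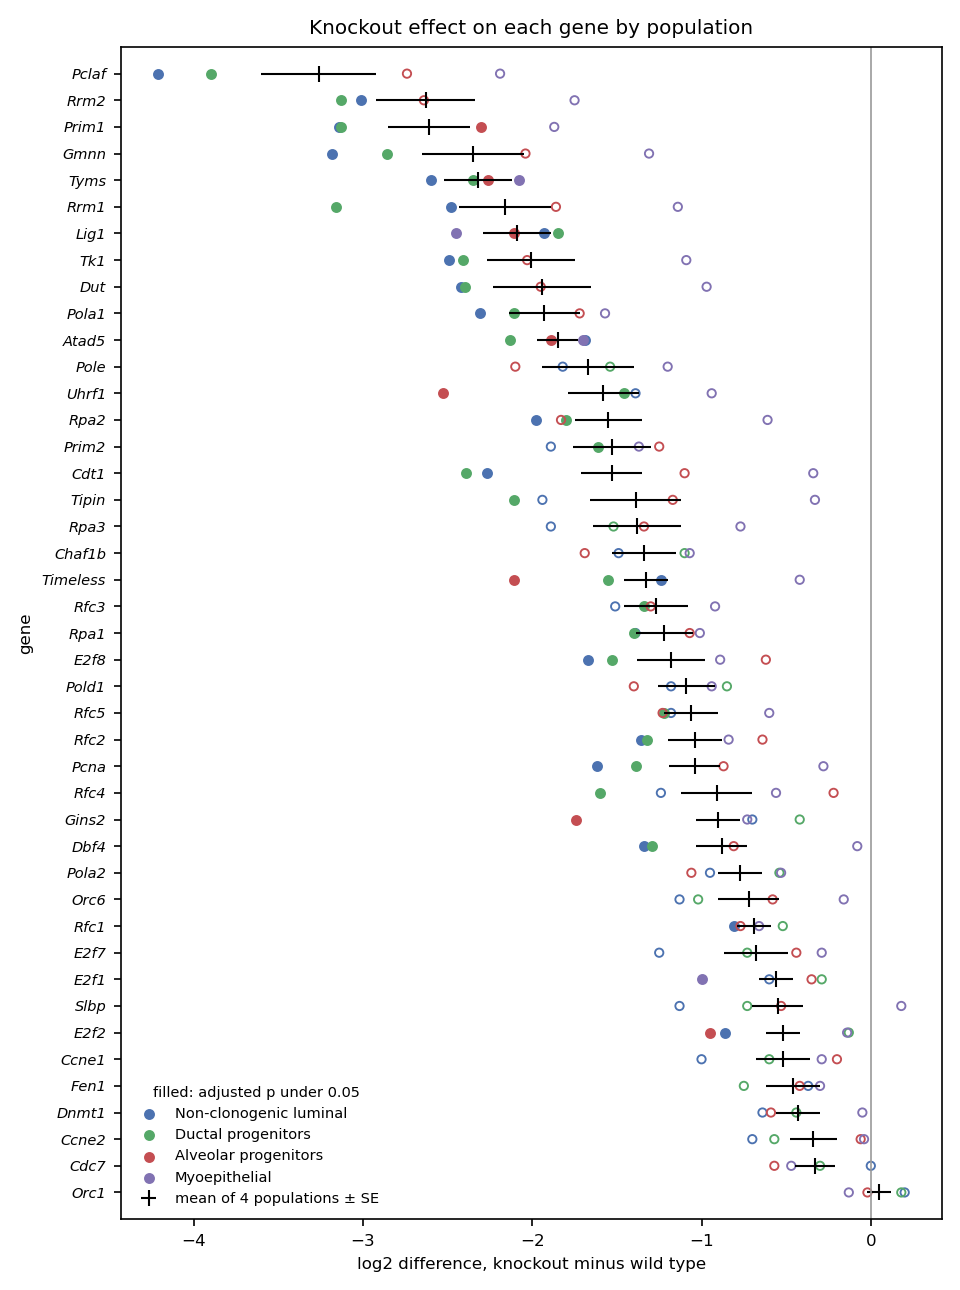
Knockout minus wild-type difference (log2, x axis) of each of the 43 members (y axis): coloured circles are the 4 populations, filled where the adjusted p was below 0.05, and black ticks with bars are their mean ± SE. The mean of Pclaf lies farthest to the left at -3.26, and Orc1 is the single member whose mean difference is above 0 (0.05).

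**Figure D2:**
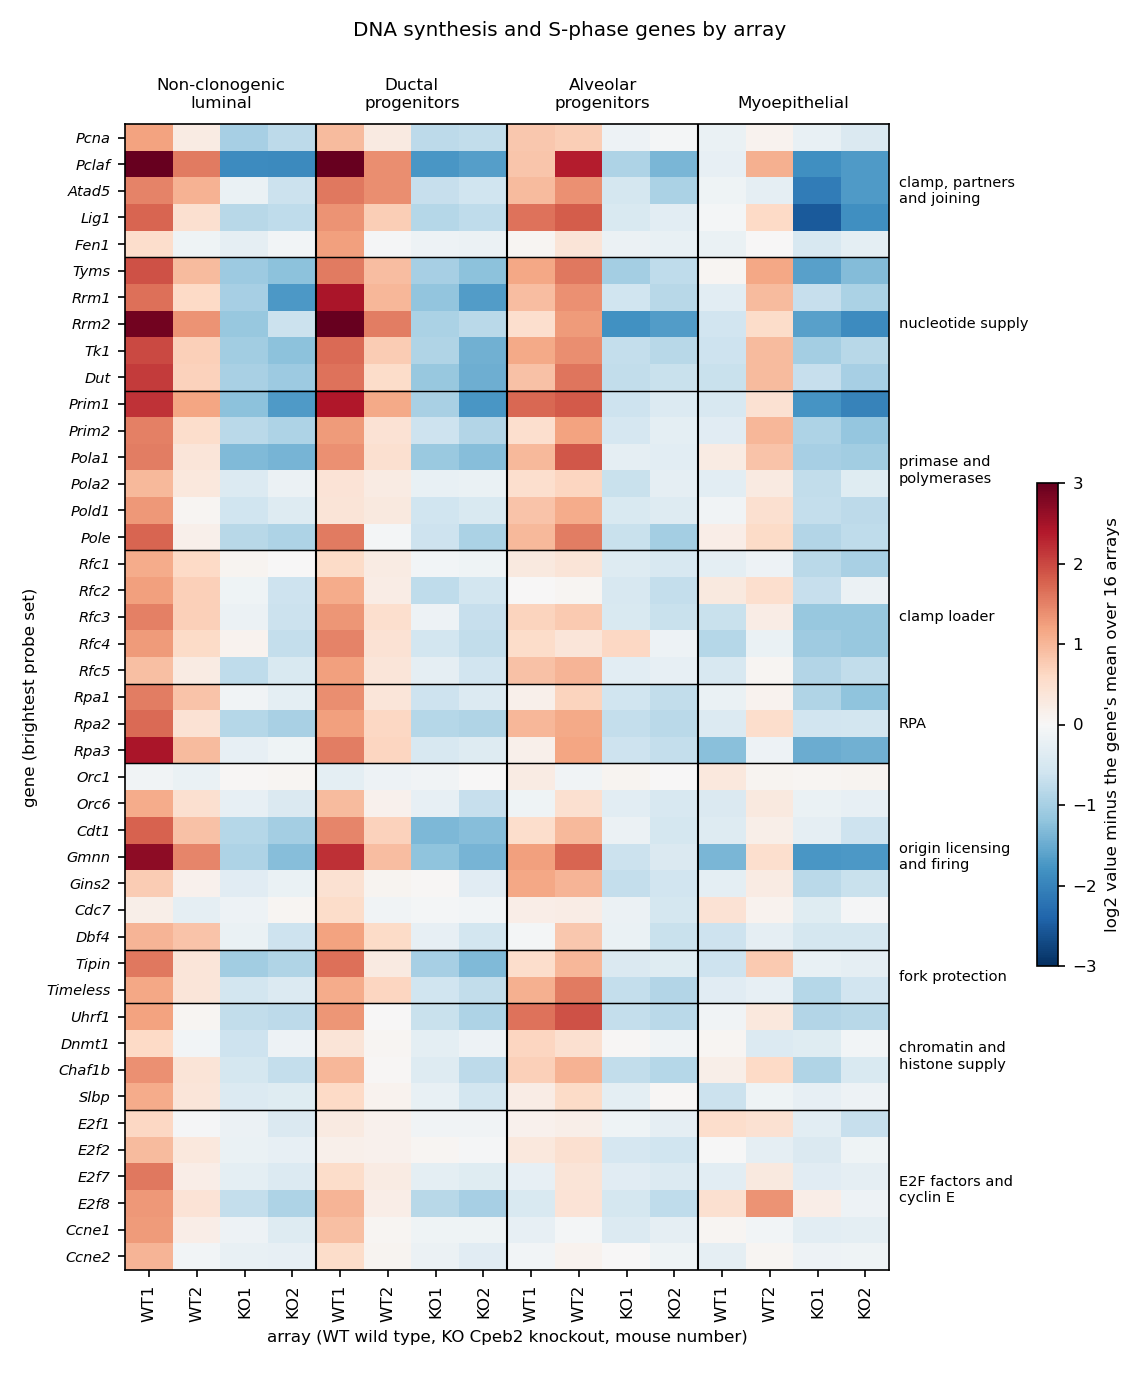
Centred log2 level of each member (rows of the picture, by role) in each of the 16 arrays (columns), coloured with the scale ending at 3 above and below the gene's mean. Most members are low in the 8 knockout arrays, Orc1 stays pale throughout, and the wild-type arrays differ among themselves.

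Promoter sequence is shown because most of these genes moved together. RefSeq promoter windows (build GRCm38.p6, 300 bases, from 250 before to 50 after a transcription start) were found for 36 of the 43 members, 44 windows in all. They were searched on both strands for the 4 E2F words TTTCCCGC, TTTCGCGC, TTTGCCGC and TTTGGCGC, which can overlap other motifs; the search was chosen after the values were seen. A word was found in 12 of 36 members (33.3%), and in 2.60% of all 27025 genes with a window. The CCAAT box was found in 20 (55.6%, against 41.06% of genes) and the GC box GGGCGG in 28 (77.8%, against 38.20%), while the median GC content was 64.3% in member windows and 52.7% in all. A match is a description of letters, not a bound site. The lines give 7 matches, 5′ to 3′ on the strand of the word, with the word in capitals and up to 11 bases on each side. They come from the 6 members with a word that fell most in the mean, and from Orc1, which was not called. The other members with a word were Rfc3, Pold1, E2f7 and E2f2, which were called lower in the mean, and Dnmt1, which was not called.
Pclaf, chr9:65890307-65890336, minus strand: aaatgggtctcTTTCCCGCgcgctccaagc
Lig1, chr7:13278841-13278870, minus strand: cgccacacagaTTTCGCGCgcactttggcg
Pola1, chrX:93632275-93632304, plus strand: gcgggagtgcaTTTGGCGCcctgtgatgac
Atad5, chr11:80089411-80089440, minus strand: gtcaattgggtTTTCCCGCcgtccggagcg
Uhrf1, chr17:56304117-56304146, plus strand: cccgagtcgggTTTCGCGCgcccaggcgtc
Cdt1, chr8:122568036-122568064, plus strand: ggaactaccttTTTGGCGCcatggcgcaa
Orc1, chr4:108579416-108579445, minus strand: aggagaaaactTTTCGCGCcactaaccgaa
Distances are from the transcription start of the window, which among others in Orc1, Uhrf1, Lig1 and Pola1 lay inside the annotated gene. Read along the gene, the word began 5 bases before that start in Pclaf, 27 before in Orc1, 138 before in Pola1 and 185 before in Uhrf1, and 22, 26 and 32 bases after it in Atad5, Lig1 and Cdt1. Members with a word had a median mean difference of -1.40 (12 genes, from -3.26 to 0.05), and members with a window but no word -1.12 (24 genes, from -2.63 to -0.33), so the ranges overlapped.

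Below, the 4 values of a population come in a fixed order: wild-type mice 1 and 2 first, then knockout mice 1 and 2.

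The clamp group fell in 4 of its 5 members. Pclaf, which binds PCNA during replication and carries the Pclaf word printed above, read 10.62, 9.08, 5.65 and 5.62 in NCL and 10.52, 8.91, 5.77 and 5.87 in DP. It read 8.35, 9.88, 6.59 and 6.15 in AP and 7.29, 8.6, 5.69 and 5.83 in Myo. Both knockout arrays lay below both wild-type arrays in every population, and the knockout arrays stayed within 1 unit of each other while the wild-type arrays spread more widely. The fall was called in NCL (18.6-fold) and DP (14.9-fold); in AP (-2.74 ± 0.65) and Myo (-2.19 ± 0.65) it did not pass the threshold. Atad5, which unloads the clamp behind the fork, read 8.53, 8.09, 6.83 and 6.4 in NCL and 8.61, 8.43, 6.34 and 6.44 in DP. Its AP values were 7.99, 8.40, 6.51 and 6.08, and its Myo values 6.91, 6.76, 4.94 and 5.34. The genotypes did not overlap in any population, and the fall was called in all 4: -1.69, -2.13, -1.89 and -1.70, each ± 0.23. Lig1, the lagging-strand ligase, read 10.84, 9.57, 8.24 and 8.32 in NCL, 10.44, 9.83, 8.23 and 8.33 in DP, 10.71, 10.90, 8.63 and 8.76 in AP, and 9.02, 9.69, 6.57 and 7.24 in Myo. Its genotypes were also apart in every population, with the largest difference in Myo (-2.45 ± 0.38, adjusted p = 0.0130). Pcna, the clamp itself, fell by 1.04 in the mean (SE 0.15, 2.05-fold), from -1.62 in NCL to -0.28 in Myo, where wild-type values of 10.85 and 11.16 nearly met knockout values of 10.82 and 10.62. The flap nuclease gene Fen1 lay below the array's lower quartile in 13 of 16 arrays, so little of a difference could be read from its probe set.

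All 5 nucleotide supply genes fell, with a median mean difference of -2.16. Tyms, thymidylate synthase, read 10.74, 9.76, 7.73 and 7.58 in NCL and 10.38, 9.74, 7.82 and 7.59 in DP. In AP it read 9.97, 10.41, 7.80 and 8.06, and in Myo 8.87, 9.97, 7.18 and 7.51. Every knockout array was more than 1 unit below every wild-type array of its population, and Tyms was called in all 4 populations, from 6.05-fold lower in NCL to 4.21-fold lower in Myo. Rrm2, the small subunit of ribonucleotide reductase, read 10.58, 9.04, 6.55 and 7.05 in NCL, 10.67, 9.22, 6.74 and 6.88 in DP, 8.19, 8.97, 5.87 and 6.02 in AP, and 7.11, 8.24, 6.05 and 5.80 in Myo. The genotypes were apart in each population, and Rrm2 was called in NCL (8.05-fold) and DP (8.78-fold). The large subunit gene Rrm1 fell most in DP (-3.16 ± 0.52, 8.96-fold) and had -1.14 ± 0.52 in Myo, which was not called. Thymidine kinase Tk1 (mean -2.01 ± 0.26) and the dUTPase gene Dut (mean -1.94 ± 0.29) had the same calls as Rrm1 and Rrm2: NCL, DP and the mean.

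All 6 primase and polymerase genes fell in the mean. Prim1, the catalytic primase subunit, read 9.86, 8.87, 6.46 and 5.99 in NCL and 10.10, 8.83, 6.73 and 5.94 in DP. Its AP values were 9.42, 9.54, 7.07 and 7.29, and its Myo values 7.22, 8.15, 5.93 and 5.69. No population overlapped, and Prim1 was called in NCL (8.81-fold), DP (8.76-fold) and AP (4.92-fold), with -1.87 ± 0.45 in Myo. Pola1, the catalytic subunit of polymerase alpha, read 8.11, 6.95, 5.26 and 5.18 in NCL, 7.95, 7.06, 5.47 and 5.31 in DP, 7.56, 8.45, 6.30 and 6.26 in AP, and 6.83, 7.43, 5.58 and 5.54 in Myo. The knockout pairs agreed closely, within 0.16 in each population, and lay below both wild-type arrays. The mean differences of the others ran from -1.67 ± 0.27 for Pole, the polymerase epsilon catalytic gene, through Prim2 (-1.53 ± 0.23) and the polymerase delta gene Pold1 (-1.09 ± 0.17) to Pola2 (-0.77 ± 0.13).

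The clamp loader moved less: all 5 RFC genes were called lower in the mean, between -0.69 and -1.27. Rfc1, the large subunit, read 10.04, 9.53, 9.01 and 8.94 in NCL, 9.52, 9.18, 8.85 and 8.80 in DP, 9.23, 9.32, 8.55 and 8.46 in AP, and 8.65, 8.78, 8.13 and 7.97 in Myo. Rfc5, a small subunit, read 9.05, 8.40, 7.39 and 7.69 in NCL, 9.38, 8.51, 7.88 and 7.57 in DP, 9.03, 9.18, 7.84 and 7.91 in AP, and 7.68, 8.20, 7.28 and 7.41 in Myo. For both genes the knockout arrays were below the wild-type arrays in all populations. Their mean differences were -0.69 ± 0.10 and -1.06 ± 0.16. Rfc2 (-1.04 ± 0.16), Rfc3 (-1.27 ± 0.19) and Rfc4 (-0.91 ± 0.21) lay between or just beyond them. Rfc4 was uneven, with -1.24 in NCL, -1.60 in DP, -0.22 in AP and -0.56 in Myo. Its genotypes overlapped in AP (9.24, 9.07, 9.32 and 8.54), where its second probe set gave -1.56 ± 0.59.

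The 3 RPA genes, whose products cover single-stranded DNA as a trimer, all fell. Rpa2 read 9.50, 8.22, 6.93 and 6.82 in NCL, 9.03, 8.41, 6.95 and 6.89 in DP, 8.79, 8.93, 7.08 and 6.99 in AP, and 7.38, 8.32, 7.23 and 7.25 in Myo. Its genotypes were well apart in the luminal populations and nearly met in Myo, where the lower wild-type array was mouse 1. Rpa1 read 11.24, 10.57, 9.6 and 9.42 in NCL, 11.11, 10.07, 9.08 and 9.30 in DP, 9.85, 10.38, 9.11 and 8.97 in AP, and 9.51, 9.82, 8.81 and 8.50 in Myo. It did not overlap in any population. The mean differences were -1.55 ± 0.20 for Rpa2, -1.22 ± 0.17 for Rpa1 and -1.38 ± 0.26 for Rpa3.

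Origin genes were mixed: 5 of 7 fell in the mean. Cdt1, which loads the helicase, read 10.95, 10.07, 8.33 and 8.16 in NCL and 10.66, 9.87, 7.84 and 7.91 in DP. In AP it read 9.72, 10.15, 9.0 and 8.67, and in Myo 8.80, 9.37, 8.92 and 8.56. The genotypes were apart in the luminal populations and overlapped in Myo, since knockout mouse 1 exceeded wild-type mouse 1 there. Geminin (Gmnn), the inhibitor of Cdt1, read 9.48, 8.27, 5.87 and 5.53 in NCL, 8.99, 7.72, 5.59 and 5.40 in DP, 8.04, 8.55, 6.15 and 6.36 in AP, and 5.43, 7.31, 5.05 and 5.07 in Myo. Its genotypes were apart everywhere; both knockout Myo arrays were below their array's lower quartile, so the Myo difference (-1.31 ± 0.56) may be understated. Gmnn was called in NCL (9.05-fold) and DP (7.28-fold). Gins2, of the GINS part of the active helicase, was called in AP alone among the single populations (-1.74 ± 0.25, adjusted p = 0.00903), with -0.70 in NCL and -0.42 in DP. Its second probe set, nearly as bright (mean level 8.69 against 9.03), gave -1.34 in AP, -1.10 in NCL and -0.86 in DP, none called. Dbf4, which activates the kinase Cdc7, fell by 0.88 in the mean (SE 0.15) although 10 of its 16 values lay below the array's lower quartile. Orc6 fell by 0.72 (SE 0.18).

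Orc1 was not called on either probe set, and several calls, that of Cdc7 among them, depended on the probe set. Orc1, the origin recognition subunit, ranged from 6.01 to 6.63 over all 16 arrays, and the 95% interval of its mean difference ran from -0.09 to 0.20; its dimmer second probe set gave -0.10 ± 0.04 (adjusted p = 0.154). The brighter Cdc7 probe set gave -0.33 ± 0.12, while the other read 7.83, 6.71, 5.64 and 5.79 in NCL, 7.49, 6.49, 5.77 and 5.93 in DP, 6.83, 7.61, 5.75 and 5.30 in AP, and 6.95, 7.33, 5.64 and 5.81 in Myo. On that probe set the genotypes did not overlap in any population, and the mean difference was -1.45 ± 0.21 (adjusted p = 0.00253). Over the list, 26 members had 33 further probe sets, tested among 28898: 31 were lower in the knockout, 22 were called lower and 0 higher. The share called lower among all 28898 probe sets was not computed. The dimmest probe sets of Tyms (mean level 4.54) and Cdt1 (4.25) gave -0.01 and 0.01. Some brighter further probe sets were not called either. Among these, 1 of Slbp (mean level 7.03) gave -0.04 ± 0.12, 1 of Prim2 (6.01) -0.17 ± 0.08 and that of Pola2 (5.87) -0.11 ± 0.09.

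Both fork protection genes fell. Timeless read 8.03, 7.22, 6.32 and 6.45 in NCL, 7.98, 7.50, 6.26 and 6.12 in DP, 7.94, 8.42, 6.15 and 5.99 in AP, and 6.53, 6.61, 6.00 and 6.28 in Myo. Its partner Tipin read 9.19, 7.98, 6.58 and 6.71 in NCL, 9.26, 7.88, 6.62 and 6.30 in DP, 8.15, 8.61, 7.18 and 7.25 in AP, and 7.0, 8.40, 7.40 and 7.35 in Myo. Timeless was apart in all populations, whereas Tipin overlapped in Myo, where wild-type mouse 1 was the lowest of the 4 arrays. Timeless was called in NCL, DP and AP (-1.24, -1.55 and -2.11, each ± 0.25), and Tipin in DP (-2.11 ± 0.51).

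Of the chromatin genes, 3 of 4 fell. Uhrf1, which binds hemimethylated DNA behind the fork and brings in Dnmt1, read 9.36, 8.22, 7.42 and 7.37 in NCL, 9.49, 8.18, 7.50 and 7.24 in DP, 9.78, 10.07, 7.45 and 7.35 in AP, and 8.05, 8.48, 7.29 and 7.34 in Myo. All its knockout arrays lay between 7.24 and 7.50 whatever the population, and every wild-type array was higher. The fall was called in DP (-1.46 ± 0.40) and AP (-2.53 ± 0.40), and its second probe set was called in all 4 populations. Chaf1b, a histone chaperone subunit, read 9.56, 8.57, 7.67 and 7.48 in NCL, 9.18, 8.22, 7.80 and 7.41 in DP, 8.91, 9.24, 7.45 and 7.33 in AP, and 8.36, 8.79, 7.28 and 7.73 in Myo. It was apart in every population and fell by 1.34 in the mean (SE 0.19). Slbp, which binds the stem-loop of histone mRNAs, fell by 0.55 (SE 0.15) and had 0.18 in Myo. The maintenance methyltransferase gene Dnmt1 had -0.43 ± 0.13.

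On the brightest probe sets, the E2F and cyclin E group had the smallest differences, a median of -0.54, with 4 of 6 members called. E2f8, an atypical repressor that is itself an E2F target, read 7.96, 7.06, 5.94 and 5.74 in NCL, 7.69, 6.87, 5.84 and 5.66 in DP, 6.21, 7.06, 6.14 and 5.89 in AP, and 7.13, 8.02, 6.86 and 6.51 in Myo. E2f1, an activator, read 7.14, 6.48, 6.34 and 6.08 in NCL, 6.78, 6.64, 6.41 and 6.42 in DP, 6.64, 6.70, 6.38 and 6.26 in AP, and 7.04, 6.98, 6.2 and 5.82 in Myo. Neither gene overlapped between genotypes, but the gap was narrow for E2f8 in AP and for E2f1 in NCL. E2f8 fell by 1.18 in the mean (SE 0.20) and was called in NCL and DP, while E2f1 fell by 0.56 (SE 0.10) and was called in Myo alone among the populations (-1.0 ± 0.19). The dimmer second E2f1 probe set had its smallest difference in Myo. It gave -0.61, -0.81, -1.28 and -0.32 in NCL, DP, AP and Myo, none called, and -0.76 ± 0.14 in the mean, which was called. E2f2 (-0.52 ± 0.10) and E2f7 (-0.68 ± 0.19, adjusted p = 0.0412) were also called in the mean. Cyclin E genes were not, and Ccne2 lay below the array's lower quartile in 15 of 16 arrays. The dimmer second E2f2 probe set gave a larger mean difference (-1.16 ± 0.15). It was called in NCL (-1.47) and DP (-1.48) but not in AP (-0.67) or Myo (-1.04).

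**Figure D3:**
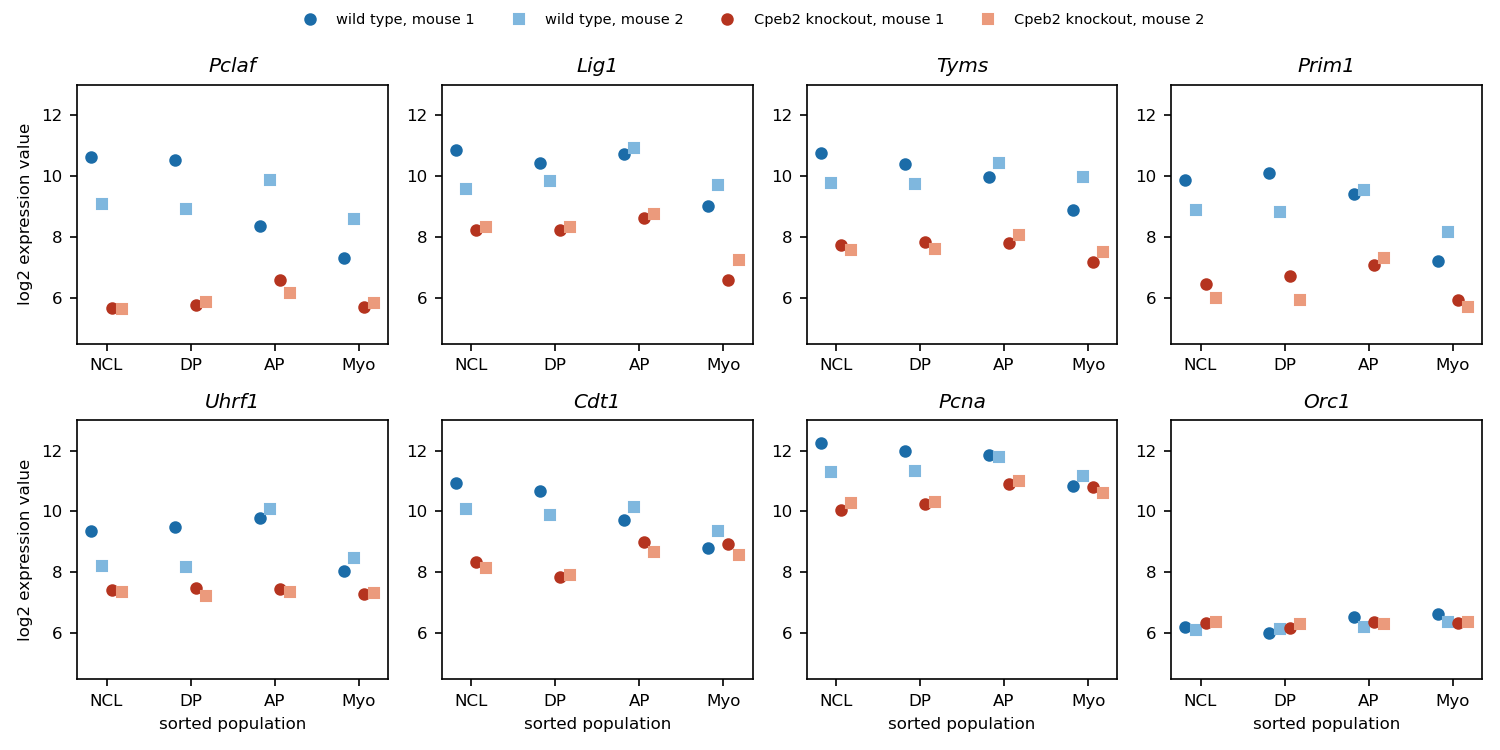
Log2 level (y axis, from 4.5 to 13) of 8 members in each array, by population on the x axis (NCL, non-clonogenic luminal; DP, ductal progenitor; AP, alveolar progenitor; Myo, myoepithelial) with genotype by colour and mouse by symbol. Wild-type points of Pclaf, Lig1, Tyms, Prim1 and Uhrf1 lie above the knockout points in every population, Cdt1 overlaps in Myo, and Orc1 runs from 6.01 to 6.63.

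By population, the direction was shared and the number of calls was not. In NCL, 20 members were called lower (1.73% of all genes were), with a median of -1.39 against 0.03 for all genes. In DP, 25 were called lower (background 4.35%), with a median of -1.40 against 0.08. In AP, 8 were called lower (background 0.351%): Atad5, Lig1, Tyms, Prim1, Gins2, Timeless, Uhrf1 and E2f2, and the median was -1.23 against 0.00. Further probe sets were tested in a separate limma fit of 28898 probe sets. There the second probe sets of Prim1 and Uhrf1 were called in AP, and the further ones of Tyms, Gins2, Timeless and E2f2 were not. The brightest probe sets of Prim1 (limma adjusted p = 0.0596) and E2f2 (0.0599) were not called in AP in that fit. In Myo, 4 were called lower (background 0.567%): Atad5, Lig1, Tyms and E2f1, and the median was -0.77 against -0.03. The further probe sets of Tyms and E2f1 were not called in Myo. No member was called higher by limma in any population or in the mean, and 0 were higher at an unadjusted p below 0.05; at that p 40, 34, 32 and 22 were lower in NCL, DP, AP and Myo, against 10.1%, 11.8%, 6.01% and 8.19% of all genes. Both knockout arrays lay below both wild-type arrays for 40 members in NCL (background 22.1%), 41 in DP (22.5%), 40 in AP (23.4%) and 33 in Myo (24%). Within parent pairs, 40, 41, 40 and 34 members were lower in both pairs in NCL, DP, AP and Myo, where 26.9%, 26.7%, 30.5% and 31.3% of all genes were.

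These counts changed when single mice or arrays were left out. A group left with 1 array adds nothing to the estimated spread, which then comes from the other groups. The median absolute difference of members between mice was 0.34 to 0.98 in wild type and 0.15 to 0.17 in knockout. The counts below therefore also depend on which genotype supplies the spread, and do not show whether 1 library carries the difference. In NCL the number called was 0 without knockout mouse 1 or 2 and 39 without wild-type mouse 2. It was 0 without the NCL array of wild-type mouse 1 or knockout mouse 2, 7 without that of knockout mouse 1, 31 without that of wild-type mouse 2, and 12 and 10 without the AP array of knockout mouse 1 and 2. In NCL the mean centred level of 6 hormone-sensing markers was 1.71 and 1.79 in wild type and 2.33 and 2.44 in knockout (1 called, Ly6d, 1.67 ± 0.31), and that of 8 myoepithelial markers was -1.83 and -1.75 against -1.51 and -1.59 (0 called in limma, 2 at an unadjusted p below 0.05); their part in the NCL result was not tested. The DP count was 1 without either knockout mouse and 1, 2 and 5 without the DP array of wild-type mouse 1 and of knockout mice 1 and 2. The fibroblast markers, high in that wild-type mouse 1 DP array, had a median difference of -1.39 in DP, where 1 of 8 was called (Dcn, -1.84 ± 0.43). Also in DP, 2 of 8 alveolar markers fell, Kit (-1.76 ± 0.27) and Elf5 (-1.61 ± 0.36), 3 of the other 6 had positive differences, and the mean centred level of the list overlapped between genotypes (1.12 and 0.76 in wild type, 0.13 and 0.90 in knockout). Of 6 hormone-sensing markers 3 rose in DP, Ly6d (2.07 ± 0.31), Esr1 (0.91 ± 0.23) and Prom1 (0.86 ± 0.22); the part of these cell type markers in the DP result was not tested. The AP count was 0 when either knockout mouse was dropped, 30 when wild-type mouse 1 was dropped and 17 when wild-type mouse 2 was. It was 2 without the AP array of either wild-type mouse, 2 and 3 without that of knockout mouse 1 and 2, 14 without the NCL array of either wild-type mouse, and 5 without the DP array of either knockout mouse. In AP the 8 myoepithelial markers read -0.87 and -0.83 in wild type and -1.10 and -1.14 in knockout, and the 8 alveolar markers 1.92 in both wild-type arrays and 2.02 and 2.60 in knockout ones, and their part in the AP result was not tested. The Myo count was 0 without either knockout mouse and 27 without wild-type mouse 1. It was 12 and 1 without the Myo array of wild-type mouse 1 and 2, 1 and 2 without that of knockout mouse 1 and 2, and 2 without the DP array of either knockout mouse. Endothelial markers were higher in knockout Myo arrays, with a mean over 10 markers of 6.80 and 7.44 against 6.51 in both wild-type arrays (1 called, Kdr, 0.61 ± 0.13), and their part in the Myo values was not tested. The mean of 2 red cell markers was lower in knockout Myo arrays, 8.1 and 8.21 against 8.81 and 8.89 in wild type. It was also lower in knockout NCL and AP arrays and overlapped between genotypes in DP. The part of red cell RNA in these results was not tested.

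**Figure D4:**
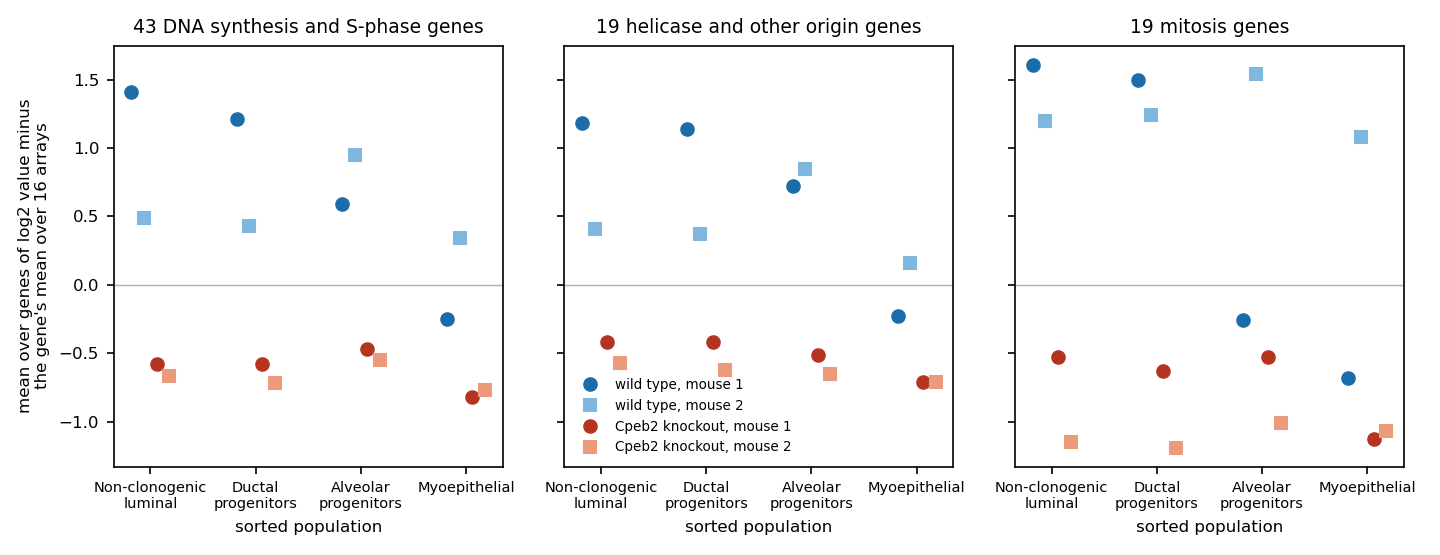
Mean centred log2 level (y axis) of the 43 members, of the helicase and other origin genes and of the mitosis genes in 3 panels, 1 point per array, by population on the x axis, with genotype by colour and mouse by symbol. Knockout values of the members lie between -0.82 and -0.47 in all 8 arrays, and wild-type values range from -0.25 to 1.41.

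The members lay farther apart between the wild-type mice than between the knockout mice. The mean centred level of the 43 members was 1.41 and 0.49 in the NCL arrays of wild-type mice 1 and 2, 1.21 and 0.43 in DP, 0.59 and 0.95 in AP, and -0.25 and 0.34 in Myo. The knockout arrays read -0.58 and -0.67 in NCL, -0.58 and -0.72 in DP, -0.47 and -0.55 in AP, and -0.82 and -0.77 in Myo. So wild-type mouse 1 was the higher of the pair in NCL and DP and the lower in AP and Myo, and the groups still did not overlap within any population. Over members, mouse 1 minus mouse 2 of the wild type had a median of 0.98 in NCL (43 of 43 higher), 0.82 in DP (42), -0.33 in AP (5) and -0.57 in Myo (7), while the medians of all genes lay between -0.08 and 0.01. In NCL 17 members were at least 1 unit apart between the wild-type mice. In the knockout the medians were 0.10, 0.14, 0.09 and -0.03, and 0 members were 1 unit apart in any population. The median difference within parent pair A (mouse 1) and pair B (mouse 2) was -1.89 and -1.09 in NCL, -1.85 and -1.02 in DP, -1.01 and -1.48 in AP, and -0.43 and -1.06 in Myo. Pclaf shows this spread: wild-type mouse 1 exceeded mouse 2 by 1.54 in NCL and 1.62 in DP, and was 1.53 below it in AP and 1.31 below it in Myo.

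**Figure D5:**
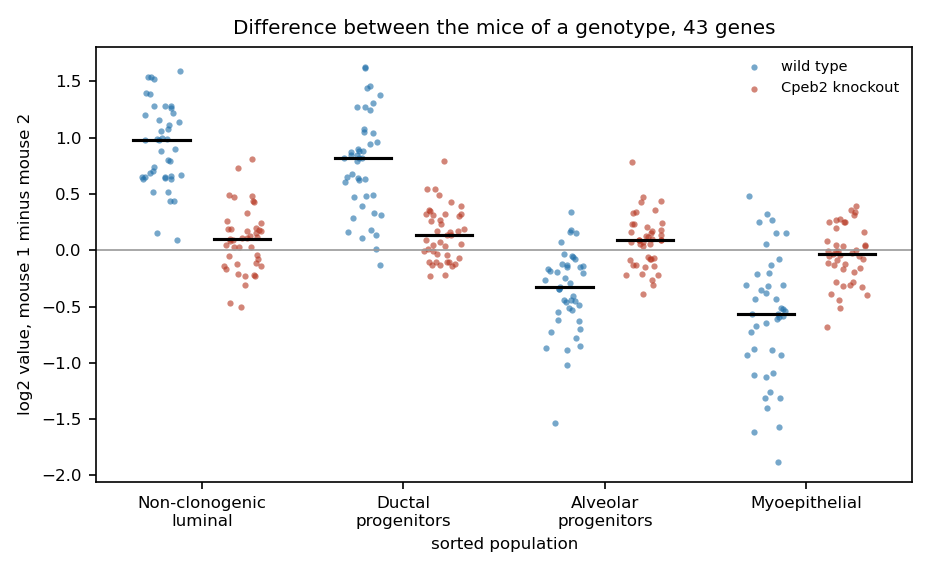
Mouse 1 minus mouse 2 (log2, y axis) of the 43 members (1 point each), by population on the x axis and genotype by colour, with black lines at the medians. The wild-type medians are 0.98 (NCL), 0.82 (DP), -0.33 (AP) and -0.57 (Myo), and the knockout medians lie between -0.03 and 0.14.

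Whether the knockout difference itself varied between populations was tested with limma in 2 ways. The F test over the 4 population differences called 0 of 43 members (background 0.667%), with 7 (16.3%) at an unadjusted p below 0.05, no more than the 16.8% of all genes there; Cdt1 had the smallest p of the members. The F count was 2 without wild-type mouse 1, 26 without wild-type mouse 2 and 1 without the DP array of that mouse. The contrast of the Sca1+ populations (NCL and DP) with AP and Myo called 1 member, Cdt1, as falling more in NCL and DP (-1.61 ± 0.33, limma adjusted p = 0.0262, background 2.54% lower). The wild-type mice differed along this same contrast: for Cdt1, mouse 1 minus mouse 2 was 0.88 in NCL, 0.79 in DP, -0.44 in AP and -0.57 in Myo. The fit treats the arrays of 1 mouse as nearly independent (consensus correlation 0.0383). The SE and p of this contrast may therefore understate the spread between mice. The median contrast over members was -0.56, against 0.07 for all genes, and 32 of 43 had a negative value, among them Pclaf (-1.59 ± 0.63, adjusted p = 0.148) and Gmnn (-1.35 ± 0.55, 0.159). At an unadjusted limma p below 0.05, 12 members were lower and 1 higher, against 10.5% and 14.8% of all genes. Cdt1 was not called without either knockout mouse, without the mouse 1 array of knockout DP, AP or Myo or of wild-type NCL, DP or AP, or without the mouse 2 array of knockout NCL, when the count was 0. The count rose to 31 without wild-type mouse 2, 2 without wild-type mouse 1, and 4, 7, 2 and 3 without the wild-type mouse 2 array of NCL, DP, AP and Myo.

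Levels between populations were compared over both genotypes. In the wild type, 21 members were highest in NCL, 13 in AP, 5 in DP and 4 in Myo, and 37 were lowest in Myo; the median range over the 4 populations was 1.01. In the knockout that range was 0.56, with 19 members highest in AP and 20 lowest in Myo. The same orders were not counted over all genes, so these counts cannot be read as a trait of the members. Between AP and Myo, 19 members were higher in AP and 1 lower at an unadjusted limma p below 0.05, against 22.0% and 23.7% of all genes. AP exceeded Myo in 13 called members (background 18.3% higher), led by Lig1 (1.62 ± 0.26), Prim1 (1.58 ± 0.31), Gmnn (1.56 ± 0.39) and Atad5 (1.26 ± 0.16), and E2f8 was called lower in AP (-0.80 ± 0.27). The total of 14 was 3 without either knockout mouse and 30 without wild-type mouse 2, and 9 and 8 without the AP array, and 8 and 9 without the Myo array, of knockout mouse 1 and 2. Between AP and NCL, 1 member was higher and 6 lower at an unadjusted limma p below 0.05, against 16.5% and 21.8% of all genes. After adjustment, 0 were called higher (background 12.6%) and 1 lower, Rfc1 (-0.49 ± 0.13). That total of 1 was 0 without either knockout mouse or the knockout mouse 2 AP array, and the totals on dropping wild-type mice 1 and 2 were 18 and 15. Leaving out 1 wild-type array gave 5, 5, 2 and 3 for NCL, DP, AP and Myo of mouse 1 and 9, 5, 2 and 3 for those of mouse 2, and leaving out knockout mouse 2 NCL gave 2. For AP against DP, 2 members were higher and 1 lower at an unadjusted limma p below 0.05, against 15.4% and 16.6% of all genes. After adjustment, 0 were called in either direction (background 10.7% higher). That count was 15 without wild-type mouse 1, 12 without wild-type mouse 2, 2 without the NCL or DP array of either, and 1 without the AP or Myo array of either. DP against NCL called 0 by limma (background 0.755% higher). At an unadjusted limma p below 0.05, 1 member was lower in DP, against 2.87% of all genes. At an arm of 1 mouse these refits assume that the lone mouse varies as the other groups do. The members did not meet this, since they lay farther apart between the wild-type mice than between the knockout mice.

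Other genes of the same process, from lists that share no gene with the members, were lower too. Of 19 helicase and other origin genes, 16 were called lower in the mean and none higher (median -1.01), led by the MCM helicase subunits Mcm5 (-3.30 ± 0.25), Mcm2 (-2.63 ± 0.24) and Mcm3 (-1.86 ± 0.23) and by Gins1 (-2.0 ± 0.21). Mcm5 and Mcm2 were called in all 4 populations. Of 13 other polymerase, fork and Okazaki genes, 7 were called lower (median -0.40), with Pole2 at -1.76 ± 0.24 and the RNase H2 subunit gene Rnaseh2b at -1.16 ± 0.14. Of 13 other nucleotide genes 6 were called lower (median -0.31), with the dCTP pyrophosphatase gene Dctpp1 at -1.14 ± 0.18. Of 6 other histone supply genes 4 were called lower (median -0.91), led by the histone chaperone gene Asf1b (-1.35 ± 0.19). Of 21 other E2F, RB and G1/S regulators 8 were called lower (median -0.32), with the RB-family gene Rbl1 at -1.54 ± 0.20 and Mybl2 at -1.19 ± 0.11. None of these genes was called higher in the mean. Of 19 genes on the mitosis list, 18 were called lower (median -1.73), led by Ccna2 (-2.82 ± 0.35), Top2a (-2.71 ± 0.34) and Mki67 (-2.68 ± 0.42).

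The members and the mitosis genes did not stand together in every array. In the AP array of wild-type mouse 1 the members' mean centred level was 0.59, above knockout values of -0.47 and -0.55, whereas the mitosis genes read -0.26 there, against -0.53 and -1.01 in the knockout and 1.54 in wild-type mouse 2. In Myo of wild-type mouse 1 the members read -0.25 and the mitosis genes -0.68, near the knockout mitosis values of -1.13 and -1.07. By limma 0 mitosis genes were called in AP or Myo, although 12 and 10 of 19 were lower there at an unadjusted p below 0.05, and 5 were called lower in NCL and 11 in DP.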

How the data were processed

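RNA of sorted cells was amplified from 15 ng and hybridised to Affymetrix mouse arrays, per the labels. The deposited table holds 1 value per probe set and array; the submitters' processing notes name RMA and limma without role or version. The values were taken as log2 intensities from RMA because they run from 3.40 to 13.60, and the deposited log2 values were used as they stand. Background correction and filters are not given in the labels or file header. Of 45141 probe sets, 28898 carried 1 gene symbol, 551 several and 15588 none, beside 104 controls; 28689 Entrez IDs matched RefSeq. All 8 groups were fitted together in limma 3.58.1 (R 4.3.3, statmod 1.5.0), with mouse as a random block (consensus correlation 0.0383), eBayes with trend and Benjamini-Hochberg adjustment over 17097 genes at 0.05. The code was tested on simulated data. Full values are given for up to 2 members per role, those with the smallest adjusted p in the mean difference, and for others chosen after values were seen (Pclaf, Cdc7); other lists name up to 4 called genes per comparison. The members and lists were chosen with earlier results of these data known. Same-numbered mice share parents by the labels, not litter or day; their deviations correlated at 0.074, -0.007, 0.059 and -0.043 (NCL, DP, AP, Myo). Alternatives were no mouse block, a parent-pair block, no trend, array weights, all probe sets averaged, quantile normalization, dim genes left out, and mice, arrays or populations left out.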

Additional observations from a re-analysis of the deposited data

Results flagged for a closer look

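Cdt1, the helicase loader, was the member whose knockout difference was called unequal between populations: the mean difference of NCL and DP less that of AP and Myo was -1.61 ± 0.33 (limma, adjusted p = 0.0262). Its differences were -2.27 in NCL, -2.39 in DP, -1.10 in AP and -0.34 in Myo, each ± 0.33. The second Cdt1 probe set gave -1.92, -1.55, -1.37 and -0.38 in the same order. The call was lost when either knockout mouse was left out and with the mean of all probe sets. In this contrast 2.54% of all genes were called lower, near the share of 1 member in 43. The F test over the 4 population differences did not call Cdt1 (adjusted p = 0.0975). Between the wild-type mice, mouse 1 minus mouse 2 was 0.88 in NCL, 0.79 in DP, -0.44 in AP and -0.57 in Myo. The SE and p of the contrast may understate this spread between mice.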

How the results depend on the processing

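Of the 37 members called in the mean difference, 37 stayed lower under all 27 alternatives run and 19 were called under all of them. When mice or single arrays were left out in turn, the number of members called ranged from 0 to 39 in NCL (20 with all arrays), 1 to 36 in DP (25), 0 to 30 in AP (8), 0 to 27 in Myo (4) and 20 to 42 in the mean (37). It ranged from 0 to 26 for the F test (0), 0 to 31 for the Sca1 contrast (1), 0 to 18 for AP against NCL (1), 0 to 15 for AP against DP (0), 0 to 2 for DP against NCL (0) and 3 to 30 for AP against Myo (14). Fitting only the 4 arrays of a population gave 4 in NCL, 2 in DP, 18 in AP and 0 in Myo. Array weights gave 23 in AP, 2 in Myo, 5 for AP against NCL and 1 for AP against DP. The mean of all probe sets gave 2 in Myo, 0 for the Sca1 contrast and 1 for AP against DP. Quantile normalization gave 5 in AP and 2 for AP against NCL, leaving out dim genes (14150 genes and 41 members left) gave 4 for AP against NCL, and wild-type arrays alone gave 1 for AP against DP. The parent pair as a replicate block gave 22, 25, 8, 4 and 39 calls in NCL, DP, AP, Myo and the mean, and added Dnmt1 (adjusted p = 0.0433) and Ccne1 (0.0323) in the mean. Orc1 turned from 0.05 to -0.02 with the mean of all probe sets and to -0.01 without wild-type mouse 2, in a leave-out range of -0.01 to 0.12. The causes of these changes were not tested. Dim signal limits Fen1, Dbf4 and Ccne2, whose knockout arrays were all below the lower quartile.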

Other observations

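Among genes outside the list, 3 from the nucleotide and regulator lists differed between populations in the Sca1 contrast. Cad, which starts pyrimidine synthesis, had 0.77 in NCL, 1.16 in DP, -1.47 in AP and -0.65 in Myo (each ± 0.43, none called), and a contrast of 2.03 ± 0.42 (limma, adjusted p = 0.0277), opposite in sign to that of Cdt1. Rb1, the retinoblastoma gene, fell in DP (-1.53 ± 0.26, adjusted p = 0.0106) and had -1.03 in NCL, 0.39 in AP and 0.11 in Myo, with a contrast of -1.53 ± 0.26 (adjusted p = 0.0152). E2f5, a repressive E2F gene, had -0.32, -0.38, 0.69 and 0.36 in NCL, DP, AP and Myo, and a contrast of -0.88 ± 0.21 (limma, adjusted p = 0.0379). As for Cdt1, the SE and p of these contrasts may understate the spread between mice.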
